A study of Homo sapiens with 6 samples.

Results

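The lysosome and autophagy genes of HCT116 cells, 48 genes chosen by symbol for their roles, were compared between 3 libraries labelled shikonin and 3 control libraries. This list, and that of the other pathway genes below, were chosen with earlier results of these data known. Their shares beside those of all tested genes are therefore description only. All 48 had enough counts to be tested, among 13548 tested genes of 35106 listed. HCT116 cells come from a human colon tumour and have long been grown as a line, and shikonin, a naphthoquinone, is a red root pigment. Both groups are labelled wild type, with shikonin for 24 h (8 μM, written μm) in the shikonin group and no treatment in the control group. The paper's methods give a lower shikonin dose for this same RNA, and which dose the libraries received could not be settled. All directions below follow the labels, but the paper's text gives SQSTM1, a receptor gene described below, the opposite direction. Whether the labels or the paper's comparison are turned round could not be settled either, and a swap of the labels would turn every direction given here. No source says whether each library had a culture of its own, so that p-values measure the spread between these libraries only.

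Lysosomes are acidic organelles in which hydrolases break down sugars, lipids and proteins. A proton pump in their membrane keeps them acidic. In autophagy, a double membrane closes around cell material, with small ATG8 proteins attached to its lipids, and then fuses with the lysosome. The transcription factors TFEB and TFE3 switch on many of these genes through a short DNA element. GLB1 encodes the lysosomal β-galactosidase whose activity is stained in senescent cells, and the study used that stain.

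The authors deposited estimated counts per gene, with library totals of 21765806, 18845690 and 19923419 in the shikonin libraries and 18874211, 19277685 and 19781383 in the control libraries. Levels are in CPM (a gene's share of its library, scaled with TMM factors and set to the same large total in each), always for replicates 1, 2 and 3 in that order. Calls rest on the quasi-likelihood test of edgeR, with p-values adjusted over all 13548 genes and a threshold of 0.05. Mitochondrially encoded genes took 6.99% of the counts in shikonin replicate 1 and 4.27% to 5.16% in the other libraries. Of 8 epithelial markers, KRT8, KRT18, KRT19, EPCAM, CDH1 and CDX2 had at least 37.7 CPM by library total in every library, LGR5 had at most 7 counts, and VIL1 was listed at 0 throughout. Since whole cultures were sequenced, fewer cells with a transcript and less of that transcript per cell cannot be told apart.

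Lysosome and autophagy genes moved in both directions, mostly by small amounts. Of the 48 genes, 8 rose and 11 fell in the shikonin libraries, which is 16.7% and 22.9%. Over all tested genes 21.9% were called, 10.8% higher and 11.1% lower. The 2 groups stood apart without overlap in 24 of the 48 genes, against 38.4% of all tested genes, with shikonin above in 9 (18.1% of all tested genes) and below in 15 (20.3% of all tested genes). Only GLA, CTSC, CD68 and SMPD1 among the called genes moved by more than 1.5-fold. The log2 fold changes ran between -1.22 and 0.82 with a median of -0.10, beside -0.02 for all tested genes. With an offset that took out trends with the length and GC content of transcripts, 8 of the 48 were higher and 17 lower, and 10 of these 17 were also lower without the offset. Leaving out control replicate 1 gave 7 lower genes of the 48.

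**Figure D1:**
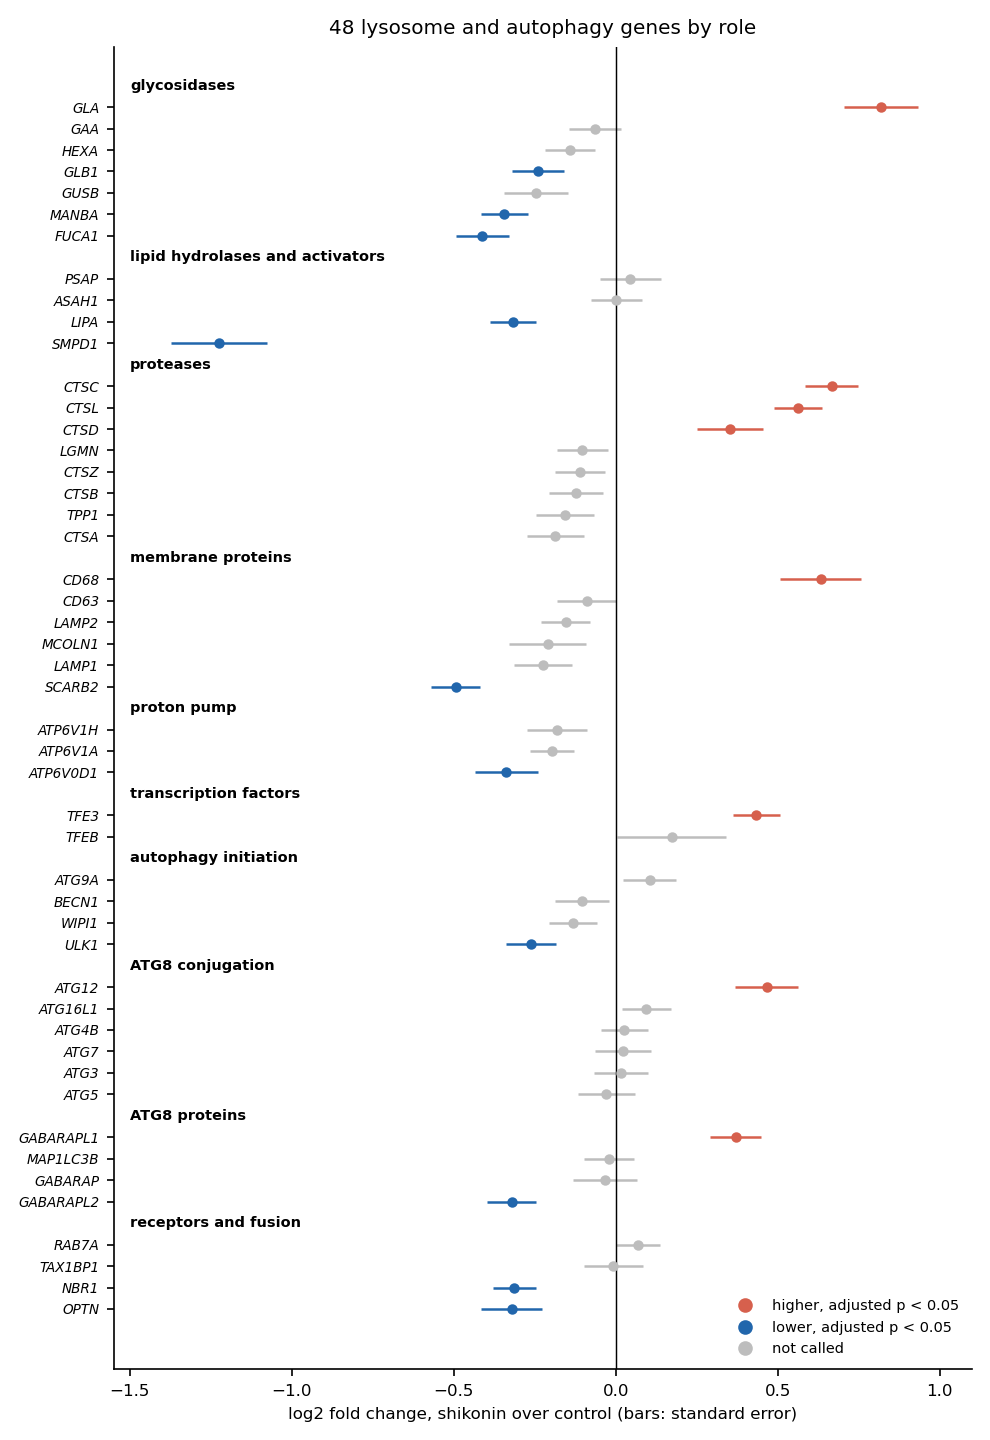
Log2 fold change of each of the 48 genes, shikonin over control (x axis), with its standard error as a bar, grouped by role down the page. Red points are the 8 genes called higher, blue points the 11 called lower and grey points the 29 not called; SMPD1 lies furthest to the left at -1.22 and GLA furthest to the right at 0.82.

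Among the 19 hydrolases and their activators, 4 rose, 5 fell and 10 did not pass, with a median log2 fold change of -0.12. Among the 29 membrane, proton pump and autophagy genes, 4 rose, 6 fell (3 with control replicate 1 left out) and 19 did not pass, with a median of -0.03. The difference between the 2 classes was not tested. With the offset, 8 hydrolases were lower in place of 5. The summed level of the hydrolases was 5521, 5727 and 4780 CPM in the shikonin libraries and 5391, 5086 and 5456 CPM in the control libraries, so that the groups overlapped. PSAP alone took 28.6% to 31.6% of the summed level of all 48 genes in a library. Without PSAP, the hydrolases summed to 2886.5, 2932.5 and 2516.9 CPM in the shikonin libraries and 2841.1, 2726.3 and 2908.5 CPM in the control libraries, again with overlap.

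GLB1 (ENSG00000170266, GRCh38 chr3:32996609-33097202, minus strand) was slightly lower in the shikonin libraries. Its levels were 122, 133 and 111 CPM in the shikonin libraries, against 144, 135 and 154 CPM in the control libraries. There was no overlap, but the highest shikonin library, replicate 2, lay just under the lowest control library, also replicate 2. The log2 fold change was -0.24 (standard error 0.08, adjusted p = 0.0437), a level 0.846 times that of the control group. This call was lost when any library other than shikonin replicate 2 was left out: its adjusted p then became 0.125 (control replicate 1 left out), 0.0601 (control replicate 2), 0.171 (control replicate 3), 0.104 (shikonin replicate 1) and, last, 0.113 (shikonin replicate 3, with a log2 fold change of -0.15). Median-of-ratios scaling gave 0.0653. TMPPE shares 253 exonic bases with GLB1 on the same strand, and averaged 125 estimated counts where GLB1 averaged 2621.

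**Figure D2:**
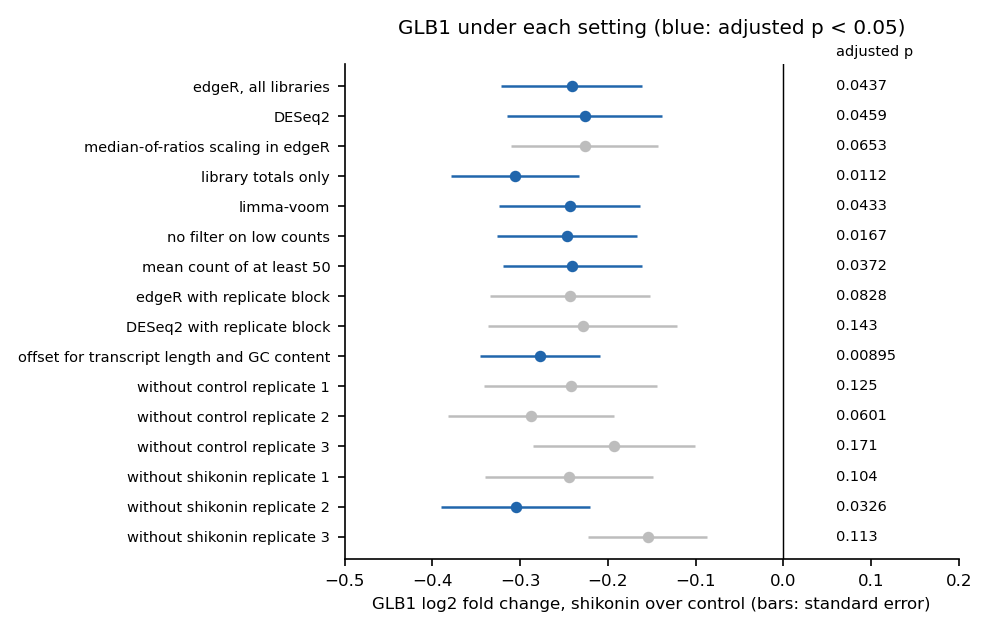
GLB1 log2 fold change, shikonin over control (x axis), with its standard error, under the edgeR test of all libraries and 15 other settings (rows), and the adjusted p of each in the right column. Every setting gave a value below 0, between -0.31 and -0.15, and 8 of the 15 other settings had an adjusted p above 0.05 (grey).

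Of the 7 glycosidases, which remove sugars from glycans and glycolipids, GLA rose, GLB1, MANBA and FUCA1 fell, and GAA, GUSB and HEXA did not pass. GLA (chrX:101393273-101408012, minus strand) encodes α-galactosidase A, the enzyme missing in Fabry disease. It was at 29.9, 30.7 and 32.4 CPM in the shikonin libraries, against 14.9, 17.8 and 20.05 CPM in the control libraries, with no overlap (log2 fold change 0.82 with a standard error of 0.11, adjusted p = 0.000252). The exons of GLA share 557 bases with RPL36A on the opposite strand, so reads of the 2 genes cannot be told apart there if strand was not used in counting. RPL36A itself was higher, at 80.1 CPM in the shikonin group and 55.6 CPM in the control group (log2 fold change 0.53, adjusted p = 0.016), and the part of RPL36A in the rise of GLA was not tested.

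MANBA, the β-mannosidase gene, had nearly the same level in all 3 shikonin libraries. It was at 54.9, 54.9 and 54.7 CPM there, against 67.7, 68.5 and 72.6 CPM in the control libraries (log2 fold change -0.34, adjusted p = 0.00402). FUCA1, which encodes an α-fucosidase, was at 44.7, 50.9 and 43.7 CPM in the shikonin libraries, against 59.9, 61.3 and 63.9 CPM in the control libraries (log2 fold change -0.41, adjusted p = 0.00292). Both genes separated the groups. The acid α-glucosidase gene GAA, with the highest CPM per kilobase of the 7, was at 503 ± 39.1 CPM in the shikonin group and 526 ± 15.2 CPM in the control group (SD, n = 3 each; adjusted p = 0.608). GUSB, for β-glucuronidase, had a log2 fold change of -0.25 at adjusted p = 0.0866, and HEXA, for a β-hexosaminidase subunit, of -0.14 at adjusted p = 0.21. GUSB was lower in every shikonin library than in every control library and had an adjusted p of 0.0326 when scaled by library totals alone and 0.0102 with the offset, but of 0.247, at a log2 fold change of -0.14, with shikonin replicate 3 left out.

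Of the 4 genes of lipid breakdown, SMPD1 and LIPA fell. SMPD1 (ENSG00000166311, chr11:6390440-6394998, plus strand) encodes acid sphingomyelinase, which releases ceramide from sphingomyelin. Its levels were 7.77, 9.29 and 8.00 CPM in the shikonin libraries, against 23.4, 18.6 and 16.5 CPM in the control libraries. The groups lay far apart, with the highest shikonin library well under the lowest control library (log2 fold change -1.22, standard error 0.15, adjusted p = 8.78e-05). Of the 48 genes, SMPD1 was the only one still called in a test against a fold of 1.5. The next enzyme of the same route, the acid ceramidase gene ASAH1, was at 82.3, 78.3 and 92.9 CPM in the shikonin libraries, against 85.4, 80.4 and 87.4 CPM in the control libraries, with overlap and a log2 fold change of 0.00 (standard error 0.08).

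LIPA, the acid lipase that frees cholesterol and fatty acids from lipoproteins, was at 65.5, 65.0 and 67.8 CPM in the shikonin libraries, against 85.6, 78.5 and 83.0 CPM in the control libraries, with no overlap (log2 fold change -0.32, adjusted p = 0.00614). LIPA has 65 exonic bases in common with IFIT2 and 94 with IFIT3, both on the opposite strand and both lower (log2 fold changes -0.77 and -0.68). They averaged 159 and 133 estimated counts beside 1465 for LIPA, and their part in its fall was not tested. PSAP, the precursor of the saposins that present lipids to these enzymes, was at 2634, 2794 and 2263 CPM in the shikonin libraries, against 2550.0, 2360.0 and 2547 CPM in the control libraries. Its groups overlapped (adjusted p = 0.779).

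Of the 8 proteases, CTSC, CTSL and CTSD rose and none fell. CTSC, which encodes the dipeptidyl peptidase cathepsin C, was at 51.3, 55.8 and 54.4 CPM in the shikonin libraries, against 36.0, 33.5 and 32.2 CPM in the control libraries (log2 fold change 0.67, standard error 0.08, adjusted p = 0.000106). CTSL, the gene of the endopeptidase cathepsin L, was at 72.4, 75.5 and 74.6 CPM in the shikonin libraries, against 51.1, 47.6 and 51.9 CPM in the control libraries (log2 fold change 0.56, standard error 0.07, adjusted p = 0.000172). In both genes every shikonin library lay above every control library by more than the spread within a group. The 7 listed CTSL pseudogenes were at 0 counts in every library.

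CTSD, the aspartic protease cathepsin D, was higher in 2 shikonin libraries only. It was at 586, 583 and 439 CPM in the shikonin libraries, against 418, 397 and 444 CPM in the control libraries, so that shikonin replicate 3 lay within the control range (log2 fold change 0.35, standard error 0.10, adjusted p = 0.0232). CTSD missed the threshold when control replicate 1 (adjusted p = 0.0872), control replicate 2 (0.105) or either of shikonin replicate 1 (0.108) and replicate 2 (0.105) was left out, and had a log2 fold change of 0.50 with shikonin replicate 3 left out. A gene listed at the same locus and strand (ENSG00000250644) shares 1304 exonic bases with CTSD and averaged 533 estimated counts beside 9422. The other proteases, CTSA, CTSB, CTSZ, LGMN and TPP1, had log2 fold changes between -0.19 and -0.10, and none passed. With the offset, CTSA (-0.30, adjusted p = 0.0102) and CTSZ (-0.26, adjusted p = 0.011) were lower, while with shikonin replicate 3 left out they were at -0.09 and -0.06 without passing.

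**Figure D3:**
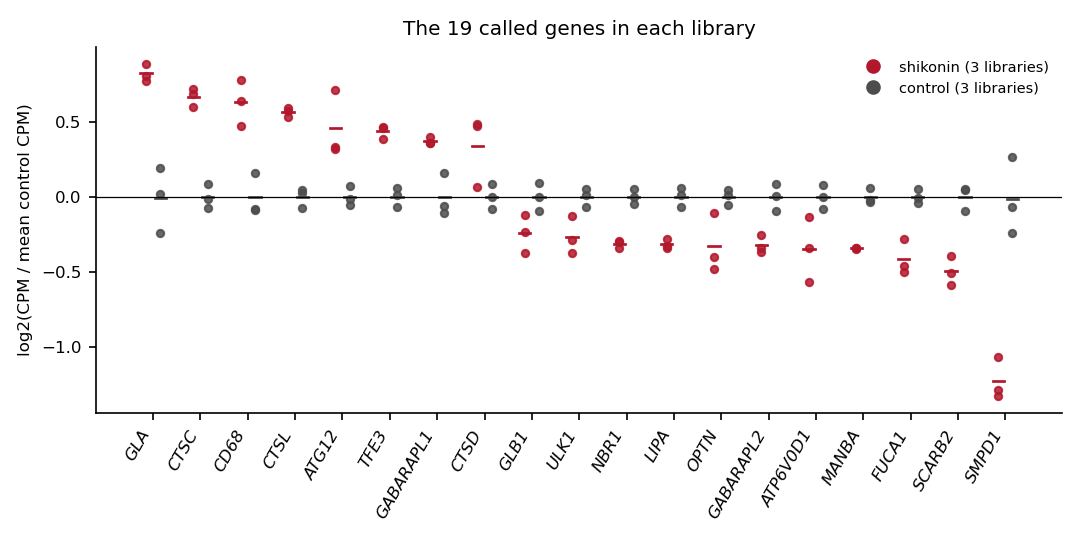
Level of each of the 19 called genes in each library (points), as log2 of its CPM over the mean control CPM (y axis), with the group means as short lines, shikonin in red and control in grey. The groups did not overlap in 18 of the 19 genes, and in CTSD shikonin replicate 3 fell among the control libraries.

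Of the 6 membrane proteins and 3 proton pump subunits, CD68 rose, SCARB2 and ATP6V0D1 fell, and 6 did not pass, with a median log2 fold change of -0.20. SCARB2 encodes LIMP-2, the receptor that carries β-glucocerebrosidase to the lysosome. It was at 165, 155 and 178 CPM in the shikonin libraries, against 241, 219 and 242 CPM in the control libraries, with no overlap (log2 fold change -0.49, standard error 0.08, adjusted p = 0.000515).

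CD68, a heavily glycosylated lysosomal membrane protein used as a macrophage marker in tissue, was at 19.1, 21.0 and 17.0 CPM in the shikonin libraries, against 13.7, 11.5 and 11.6 CPM in the control libraries (log2 fold change 0.63, standard error 0.13, adjusted p = 0.00293), with all 3 shikonin libraries above. The 4 other macrophage markers examined, CSF1R, CD163, MRC1 and ITGAM, summed to 21 to 39 counts in a shikonin library and 6 to 17 counts in a control library, and none was at 0 in all 6 libraries. CD68 itself had 398, 381 and 342 estimated counts in the shikonin libraries and 263, 228 and 233 in the control libraries. Of 5 leukocyte markers, PTPRC had at most 3 counts in a library and CD14, the highest, at most 34. All libraries are labelled as HCT116 cells, and the part of any other cells in the rise of CD68 was not tested. LAMP1, a main structural protein of the lysosomal membrane, was at 371, 364 and 295 CPM in the shikonin libraries, against 403, 384 and 416 CPM in the control libraries, lower in every shikonin library without passing (adjusted p = 0.0838). LAMP1 had an adjusted p of 0.0175 when scaled by library totals alone and 0.0172 with the offset, but a log2 fold change of only -0.10 (adjusted p = 0.204) with shikonin replicate 3 left out. LAMP2, CD63 and the calcium channel gene MCOLN1 had log2 fold changes of -0.15, -0.09 and -0.21, none passing. LAMP2 passed without shikonin replicate 3 (adjusted p = 0.0377), and CD63 and MCOLN1 with the offset (adjusted p = 0.0265 and 0.0466). Against this, LAMP2 was at -0.01 with the offset, and CD63 and MCOLN1 were at 0.00 and -0.09 with shikonin replicate 3 left out.

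ATP6V0D1, a subunit of the membrane sector of the proton pump, was at 69.4, 60.3 and 51.4 CPM in the shikonin libraries, against 76.1, 72.2 and 80.7 CPM in the control libraries (log2 fold change -0.34, standard error 0.10, adjusted p = 0.0228). No library overlapped the other group, though the shikonin libraries spread widely. ATP6V0D1 missed the threshold with control replicate 1 (adjusted p = 0.0743), control replicate 3 (0.0757) or either of shikonin replicate 2 (0.0675) and replicate 3 (0.0616, log2 fold change -0.21) left out. ATP6V1A, the catalytic subunit, was at 74.2, 71.9 and 75.8 CPM in the shikonin libraries, against 85.4, 84.3 and 84.6 CPM in the control libraries. These groups were tight and did not overlap, but the log2 fold change of -0.20 just missed the threshold (adjusted p = 0.0517) and passed without shikonin replicate 3 (adjusted p = 0.0293), while with the offset it was -0.11 (adjusted p = 0.195). ATP6V1H showed a log2 fold change of -0.18 (adjusted p = 0.174).

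TFE3 rose, while TFEB, the other factor of the same family, was low and did not pass. TFE3 (chrX:49028726-49043410, minus strand) was at 75.2, 78.8 and 79.3 CPM in the shikonin libraries, against 54.8, 58.0 and 59.9 CPM in the control libraries, with no overlap (log2 fold change 0.43, standard error 0.07, adjusted p = 0.00098). TFEB was at 6.76, 5.83 and 6.70 CPM in the shikonin libraries, against 5.66, 5.51 and 5.96 CPM in the control libraries, with overlap (log2 fold change 0.17, standard error 0.17, adjusted p = 0.503). Per kilobase of transcript, TFE3 had 23.6 CPM in the shikonin group and 17.5 CPM in the control group, and TFEB had 2.76 CPM and 2.45 CPM in the same groups. These are levels of messenger RNA, and both factors are known to be controlled mainly by where their proteins sit in the cell.

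Of the 4 genes that start autophagy, ULK1 fell and 3 did not pass. ULK1, the kinase that starts the process, was at 111, 124 and 105 CPM in the shikonin libraries, against 137, 130 and 140.4 CPM in the control libraries (log2 fold change -0.26, standard error 0.08, adjusted p = 0.025). All 3 shikonin libraries lay below the control libraries. ULK1 missed the threshold with control replicate 1 (adjusted p = 0.0957), control replicate 2 (0.0517), control replicate 3 (0.09), shikonin replicate 1 (0.085) and, separately, shikonin replicate 3 (0.055) left out, and with the offset (0.0552). BECN1, of the lipid kinase complex, ATG9A, the membrane scramblase, and WIPI1, which binds the lipid that this kinase makes, had log2 fold changes of -0.10, 0.10 and -0.13 and did not pass. ATG9A passed without shikonin replicate 3 (0.21, adjusted p = 0.0195) and WIPI1 with the offset (-0.21, adjusted p = 0.0218). ARSG shares 829 exonic bases with WIPI1 on the opposite strand and was higher (log2 fold change 0.41, adjusted p = 0.00832). Its part in the level of WIPI1 was not tested.

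Among the 6 genes of the machinery that attaches ATG8 proteins to lipid, ATG12 rose and the other 5 stayed between -0.03 and 0.09 on the log2 scale without passing. Those 5 are ATG7 and ATG3, the activating and conjugating enzymes, ATG4B, the protease that trims ATG8 proteins, and ATG5 and ATG16L1. VGLL4 shares 1597 exonic bases with ATG7 on the opposite strand and averaged 2226.5 estimated counts beside 764.6. VGLL4 was lower (log2 fold change -0.30, adjusted p = 0.0104), and its part in the level of ATG7 was not tested. ATG12, which is joined to ATG5 as a small tag, was at 84.0, 83.2 and 109 CPM in the shikonin libraries, against 70.0, 66.0 and 64.2 CPM in the control libraries (log2 fold change 0.47, standard error 0.10, adjusted p = 0.00397). Shikonin replicate 3 stood highest, and no shikonin library reached down to the control libraries. Its partners ATG5 and ATG16L1 had log2 fold changes of -0.03 and 0.09. AP3S1 shares 185 exonic bases with ATG12 on the opposite strand and was also higher (log2 fold change 0.39, adjusted p = 0.00713). Its part in the rise of ATG12 was not tested.

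Of the 4 ATG8 genes, GABARAPL1 rose, GABARAPL2 fell and 2 did not pass. GABARAPL1 was at 97.2, 99.8 and 97.1 CPM in the shikonin libraries, against 70.5, 72.6 and 84.5 CPM in the control libraries (log2 fold change 0.37, standard error 0.08, adjusted p = 0.0044). GABARAPL2 was at 57.9, 62.7 and 59.0 CPM in the shikonin libraries, against 75.0, 70.0 and 79.5 CPM in the control libraries (log2 fold change -0.32, standard error 0.08, adjusted p = 0.0085). Both separated the groups. The ratio of GABARAPL1 to GABARAPL2 within a library, which does not depend on scaling, was 1.68, 1.59 and 1.65 in the shikonin libraries, against 0.94, 1.04 and 1.06 in the control libraries. This ratio was formed after the values were seen and is given without a test.

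MAP1LC3B, which encodes the ATG8 protein LC3B, and GABARAP overlapped between the groups, with log2 fold changes of -0.02 (adjusted p = 0.875) and -0.03 (adjusted p = 0.849). MAP1LC3B, with the highest CPM per kilobase of the 4, was at 420 ± 11.4 CPM in the shikonin group and 427 ± 32.5 CPM in the control group (SD, n = 3 each). The sum of the 4 genes was 668, 651 and 650 CPM in the shikonin libraries and 682, 623 and 667 CPM in the control libraries, and these ranges overlapped. GABARAPL3, a close copy of GABARAPL1, was at 0 counts in every library, and MAP1LC3B2, a close copy of MAP1LC3B, had 8.1 to 19.9 estimated counts.

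**Figure D4:**
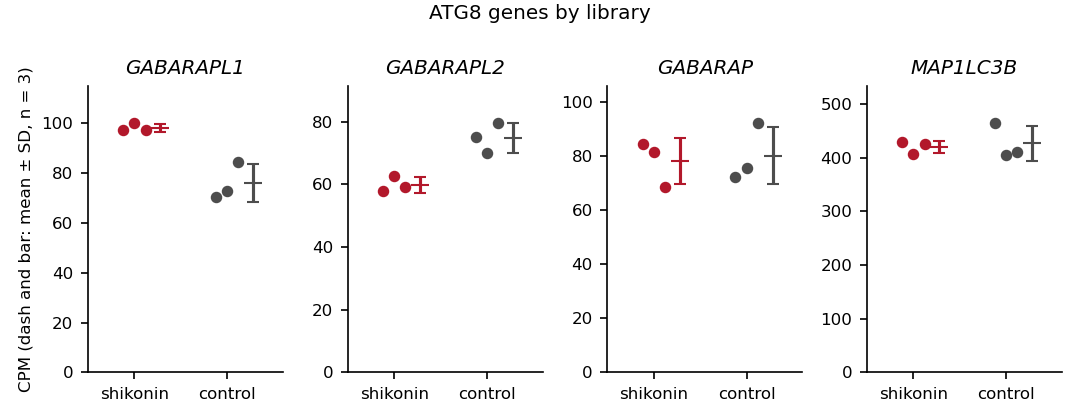
Levels in CPM (y axis, from 0) of the 4 ATG8 genes in each library (points), with the mean and SD of 3 libraries beside them, shikonin in red and control in grey. GABARAPL1 was higher and GABARAPL2 lower in every shikonin library than in every control library, while GABARAP and MAP1LC3B overlapped.

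Of the receptors that tie cargo to ATG8 proteins, NBR1 and OPTN fell and TAX1BP1 did not pass. NBR1 was at 136, 139 and 139.8 CPM in the shikonin libraries, against 171, 167 and 178 CPM in the control libraries, with no overlap (log2 fold change -0.31, standard error 0.07, adjusted p = 0.00427). OPTN was at 44.8, 47.2 and 58.0 CPM in the shikonin libraries, against 64.3, 63.0 and 60.04 CPM in the control libraries, and shikonin replicate 3 came close to control replicate 3 (log2 fold change -0.32, standard error 0.09, adjusted p = 0.0249). OPTN missed the threshold with control replicate 1 (adjusted p = 0.0997), control replicate 2 (0.081) or either of shikonin replicate 1 (0.117) and replicate 2 (0.101) left out. CCDC3 shares 147 exonic bases with OPTN on the opposite strand and showed a log2 fold change of 0.23 (adjusted p = 0.207). SQSTM1, which encodes the receptor p62 and shares its domain plan with NBR1, was higher by the labels, though the paper's text has it lower. It was at 1508, 1730.0 and 1405 CPM in the shikonin libraries, against 807, 779 and 896 CPM in the control libraries (log2 fold change 0.90, adjusted p = 2.54e-05). The ratio of SQSTM1 to NBR1 was 11.1, 12.4 and 10.05 in the shikonin libraries and 4.71, 4.68 and 5.04 in the control libraries. It pairs a gene called higher with one called lower, was also formed after the values were seen, and is given without a test. RAB7A, the GTPase of late endosomes that guides fusion, showed a log2 fold change of 0.07 (adjusted p = 0.518).

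Among the shikonin libraries, replicate 3 was most often the lowest across these genes. Over all tested genes, the shikonin libraries correlated at 0.983 to 0.985 with each other and the control libraries at 0.983 to 0.986. Shikonin replicate 3 was the lowest of the 3 in 26 of the 48 genes and in 13 of the 19 hydrolases, while control replicate 2 was the lowest control library in 27 of the 48. Across the 48 genes, the log2 level of shikonin replicate 3 relative to replicates 1 and 2 fell with the GC content of the transcript (Pearson's r = -0.69, Spearman's rho = -0.71, genes of the same 3 libraries, not independent replicates). This relation was not examined for any other library. The log2 fold change between the groups showed little relation to GC content (Pearson's r = -0.01, Spearman's rho = 0.08, n = 48). Without shikonin replicate 3, 9 of the 48 genes were higher and 10 lower, and the median log2 fold change of the 48 was -0.05.

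Promoter sequences from RefSeq (GRCh38.p14, 250 bases before to 50 after the start of a gene) were found for 39 of the 48 genes. The following letters were searched on both strands: the E-box CACGTG, the CLEAR element of TFEB and TFE3 in its strict form, which is the E-box with GT before it and AC after it, and TGACNNNGC, the core of the antioxidant response element. Every strict CLEAR match therefore holds an E-box. The E-box was in 8 of 39 windows (20.5%, against 7.43% of 27305 windows of all genes), the strict CLEAR element in 2 (5.13%, against 0.381%) and TGACNNNGC in 12 (30.8%, against 13.6%). The strict CLEAR element was in GAA and MCOLN1, neither of them called. The E-box was in 1 of the 8 genes called higher, in 1 of the 10 with a window called lower and in 6 of 21 not called. TGACNNNGC was in 5 of the 8 genes called higher, in 2 of the 10 with a window called lower (FUCA1 and ATP6V0D1) and in 5 of 21 not called. These counts describe letters and not binding. By class, TGACNNNGC was in 8 of 13 hydrolase windows (61.5%) and in 4 of 26 windows of the other classes (15.4%). Of the higher genes with it, CTSC, CTSD, CTSL and GLA are hydrolases and CD68 is not. The parts of class and of direction were not told apart. GLB1, SMPD1, TFE3 and GABARAPL1 held none of these letters in this window.

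The stretches around these letters are shown for the 5 higher genes with TGACNNNGC and for the 2 genes with the strict CLEAR element, 5′ to 3′ on the strand of the gene, with every match in capitals. In CTSD (second stretch), CTSL and GAA, TGACNNNGC stands on the other strand and is read there as its reverse complement. In GAA this match overlaps the first CLEAR element.
CTSC, chr11:88337768-88337826, minus strand: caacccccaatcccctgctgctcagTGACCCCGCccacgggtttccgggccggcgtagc
CTSD, chr11:1764089-1764147, minus strand: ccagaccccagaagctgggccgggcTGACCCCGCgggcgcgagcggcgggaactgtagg
CTSD, chr11:1763890-1763999, minus strand: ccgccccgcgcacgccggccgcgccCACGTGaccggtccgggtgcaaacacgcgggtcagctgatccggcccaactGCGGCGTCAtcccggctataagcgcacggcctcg
CTSL, chr9:87726071-87726129, plus strand: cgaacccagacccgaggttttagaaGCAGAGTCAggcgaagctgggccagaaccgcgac
GLA, chrX:101407876-101407933, minus strand: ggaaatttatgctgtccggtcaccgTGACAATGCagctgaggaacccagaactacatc
CD68, chr17:7579422-7579480, plus strand: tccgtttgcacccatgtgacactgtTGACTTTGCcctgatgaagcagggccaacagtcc
GAA, chr17:80101473-80101582, plus strand: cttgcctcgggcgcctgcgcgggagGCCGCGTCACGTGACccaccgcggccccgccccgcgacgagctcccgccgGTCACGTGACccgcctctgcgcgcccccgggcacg
MCOLN1, chr19:7522558-7522642, plus strand: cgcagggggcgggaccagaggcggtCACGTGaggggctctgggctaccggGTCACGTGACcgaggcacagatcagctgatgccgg

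Of 136 other tested lysosome and autophagy genes, 8 rose and 35 fell, which is 5.88% and 25.7%, against 10.8% and 11.1% of all tested genes. The median log2 fold change of the 136 was -0.12. All 43 separated the groups, which is no support of its own, as they were called from the same libraries. Of all 136, shikonin lay above without overlap in 11 (18.1% of all tested genes) and below in 54 (20.3% of all tested genes). The 7 untested genes were GALC, CTSF, CTSS, PPT2, TFEC, MAP1LC3A and MAP1LC3C. The lower genes had longer transcripts, with a median of 4396 bases, than the higher ones at 2469 bases and those not called at 3029 bases. Longer transcripts tended to have lower log2 fold changes among the 136 genes (rho = -0.36 by Spearman, genes of the same libraries), and with all tested genes in 5 equal bins by length the median was 0.14 in the shortest bin and -0.13 in the longest. The part of length in these falls was not tested beyond the offset. With the offset for length and GC content, 9 of the 136 were higher and 41 lower. Leaving out shikonin replicate 3 gave 15 higher genes of the 136, and leaving out control replicate 2 or 3 or shikonin replicate 1 or 2 gave 5. The lower genes numbered 20 without control replicate 1 and 23 without shikonin replicate 2.

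None of the 27 other hydrolases tested and none of the 16 genes of sorting and delivery rose, while 9 (33.3%) and 4 (25%) fell. Of all tested genes, 10.8% rose and 11.1% fell. By p-value the first 2 lower genes were both of sorting. SORT1, the sorting receptor sortilin, was at 72.8 ± 3.96 CPM in the shikonin group and 122 ± 4.17 CPM in the control group (SD, n = 3 each; log2 fold change -0.75, adjusted p = 1.3e-05). GNPTAB, whose product starts the mannose 6-phosphate tag on hydrolases, was at 67.7 ± 8.48 CPM in the shikonin group and 109 ± 1.81 CPM in the control group (SD, n = 3 each; log2 fold change -0.69, adjusted p = 0.000109). The iduronate sulfatase gene IDS had a log2 fold change of -0.50, the kinase gene ULK2 of -0.67, RUBCN, which restrains autophagosome maturation, of -0.46 and ZFYVE1, which marks sites of autophagosome formation, of -0.53, with adjusted p of at most 0.000845. All 6 kept their call in every alternative without a fold limit.

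Of the 14 other fusion genes, 7 fell (50%, against 11.1% of all tested genes) and none rose (against 10.8%). They are named after their values were seen. VPS39, VPS41 and VPS18 belong to the HOPS tether, with log2 fold changes of -0.33, -0.33 and -0.30, while its other subunits VPS11, VPS16 and VPS33A were at -0.14, -0.19 and -0.14 and did not pass. STX17, SNAP29 and VAMP8 form the SNARE complex of autophagosome and lysosome, with log2 fold changes of -0.37, -0.24 and -0.46 (adjusted p = 0.0109, 0.0303 and 0.00865), and EPG5, a tether, had -0.38 (adjusted p = 0.00801). VPS39 and VAMP8 kept their call in all 15 alternatives without a fold limit. SNAP29 lost it in 7 of them, with an adjusted p of up to 0.17, VPS41 in 3, and STX17, VPS18 and EPG5 in 2 each. With the offset for length and GC content, EPG5 was at -0.22 and lost its call (adjusted p = 0.059), and STX17 and VPS41 were at -0.22 each (adjusted p = 0.024 and 0.0329), whereas VAMP8, with a short transcript of 679 bases, was at -0.61.

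Of the 14 other receptors 4 rose (28.6%, against 10.8% of all tested genes). They were SQSTM1 (by the labels, against the paper's text), BCL2L13, PHB2 and FKBP8, the last 3 with log2 fold changes of 0.33, 0.34 and 0.25. Another 4 fell (28.6%, against 11.1% of all tested genes) and 6 did not pass. Among these 6 were BNIP3, BNIP3L and FUNDC1, which like BCL2L13, PHB2 and FKBP8 are receptors of mitophagy, at 0.31, -0.18 and -0.09. LAPTM4B, a late endosomal membrane protein, was at 0.32 and PQLC2, an exporter of basic amino acids, at 0.39. Of BCL2L13, PHB2, FKBP8, LAPTM4B and PQLC2, none had an adjusted p above 0.0347. Of the fits with 1 library left out, FKBP8 kept its call in that without shikonin replicate 3 only. In the others its adjusted p was 0.0773 to 0.159, the highest with shikonin replicate 1 left out. Of the 6 tested MiT/TFE factors and feedback genes, RRAGC, a GTPase that recruits these factors to the lysosome, fell (log2 fold change -0.37, adjusted p = 0.0201), and MITF, FLCN, FNIP1, FNIP2 and RRAGD had log2 fold changes of -0.58, -0.05, -0.24, -0.41 and -0.13 without passing. RRAGC lost its call in 4 of the 15 alternatives, with an adjusted p of up to 0.0969.

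**Figure D5:**
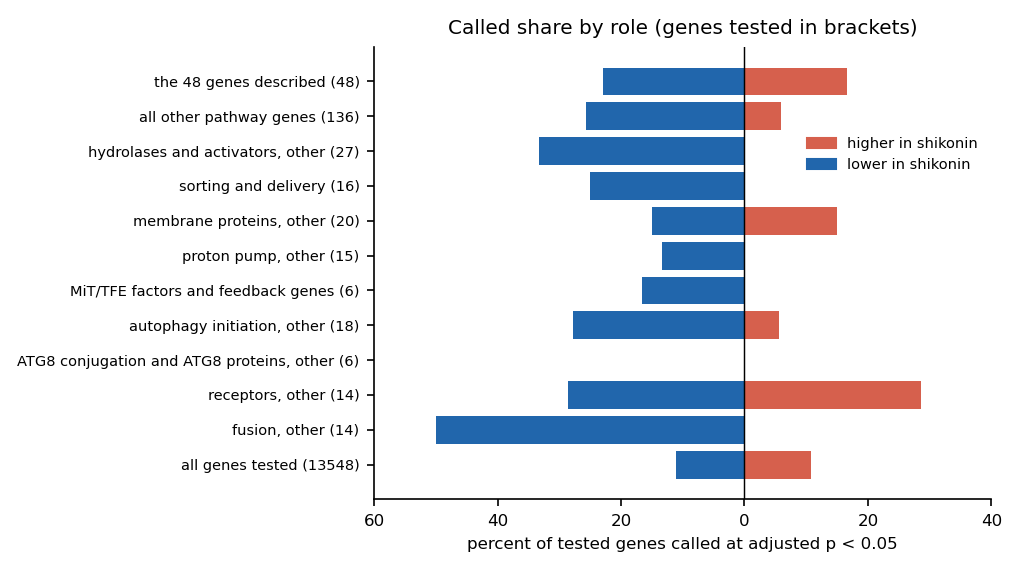
Share of tested genes called higher (red, to the right) or lower (blue, to the left) in the shikonin libraries, in percent (x axis), for the 48 genes described, for the 136 other tested pathway genes by role, and for all 13548 tested genes. Of the bars drawn, fusion genes had the longest lower one, with 7 of 14 genes, and receptors the longest higher one, at 28.6%.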

How the data were processed

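Messenger RNA of 6 HCT116 libraries was sequenced by the authors. They deposited estimated counts per gene, unscaled, and 46.5% to 63.3% of each library's nonzero entries had decimals. The paper names TopHat2, hg38 and featureCounts without versions, whereas the submitters' processing notes name GRCm38 and mm10; the gene identifiers are human. The plan had assumed whole counts, so values were rounded before fitting.

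After filterByExpr, libraries were scaled with TMM (trimmed mean of M values), and groups were compared with glmQLFit and glmQLFTest in edgeR 4.0.16 (R 4.3.3). Standard errors are the absolute log2 fold change over the square root of F. Adjustment was by Benjamini and Hochberg. CPM per kilobase used the canonical transcript of GENCODE 44, which also gave coordinates, GC content and exonic overlaps of at least 50 bases.

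Values per library are given for GLB1 and each called member, and in each direction the 6 other pathway genes with the smallest p are named. The members and lists were chosen with earlier results of these data known. Other settings tried were limma-voom (limma 3.58.1), DESeq2 1.42.0, other scalings and filters, a replicate block, a fold test, an offset (splines with 5 degrees of freedom) and leaving out each library. The edgeR fit was tried on simulated data with changes of 1.5-fold or more, so that recovery of smaller changes was not examined. Protein sequences were not used here.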

Additional observations from a re-analysis of the deposited data

How the results depend on the processing

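No called gene changed direction in any alternative. Of the 19 called members, 14 kept their call in all 15 alternatives without a fold limit, and GLB1, CTSD, ATP6V0D1, ULK1 and OPTN lost it in at least 1; 10 uncalled members passed in at least 1, and 11 uncalled members changed sign without a call. Of the other pathway genes, 17 of 35 lower and 5 of 8 higher calls held throughout. In a test against a fold of 1.5, 38 genes were higher and 24 lower over all genes, 0 members were higher and 1 lower (0 and 1 hydrolases; 0 and 0 of the other classes), 0 and 0 pathway genes passed, and GLB1 (-0.24) had an adjusted p of 1. With DESeq2 and a replicate block, 776 genes were lower over all genes, with 7 members (3 outside the hydrolases) and 21 pathway genes lower and GLB1 at -0.23. With the replicate block in edgeR, 8 members were higher and 9 lower, 5 pathway genes were higher and GLB1 was at -0.24. The replicate numbers gave no sign of pairing (correlations of same-numbered deviations 0.0027, 0.013 and 0.037). No control library was closest to the shikonin library of its own number. With 3 libraries per group, a weak pairing could be missed. With library totals only, 1033 genes were higher and 2150 lower over all genes and 5 pathway genes higher, with a median log2 fold change over all genes of -0.08. Median-of-ratios scaling gave GLB1 a value of -0.23. The offset gave 17 lower members, 8 of them hydrolases. Leaving out 1 library gave 861 to 2074 higher and 776 to 1901 lower genes over all genes, 7 to 10 lower members (3 to 6 outside the hydrolases), 5 to 15 higher and 20 to 36 lower pathway genes, and GLB1 at -0.31 to -0.15. The lowest member count was 106, in TFEB.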
